A study of Mus musculus with 12 samples.

Results

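The genes described here make, break down and read cyclic AMP (cAMP) in the mouse kidney. They are the adenylyl cyclases (*Adcy*), the cyclic nucleotide phosphodiesterases (*Pde*), the catalytic and regulatory subunits of protein kinase A (PKA), and the transcription factors *Creb1*, *Crem* and *Creb3l1*. Members were taken from the deposited table by their symbol among its protein-coding entries. This gave 43 entries with 42 symbols, of 35275 entries in the table. *Pde4d* was listed 2 times, once as the known gene and once as a short neighbouring entry of 1855 bases, called *Pde4d* (short) below.

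Adenylyl cyclases form cAMP when receptors coupled to the G protein Gs are occupied, and receptors coupled to Gi restrain most of them. cAMP releases the catalytic subunits of PKA from their regulatory subunits, PKA phosphorylates CREB and many other proteins, and phosphodiesterases end the signal by hydrolysing cAMP, cGMP or both. In polycystic kidney disease cAMP is known for driving fluid secretion into cysts and growth of the cyst epithelium, and vasopressin acting on the collecting duct is a well-studied source of it.

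Whole-kidney poly(A) RNA was sequenced from 12 mice of the C57BL/6J strain at 6 months of age, in 3 groups of 4 mice with 2 females and 2 males each. WT mice carried no engineered allele. RC/RC mice carried on both chromosomes the RC allele of *Pkd1*, a knock-in that lowers the function of polycystin-1 and gives slowly progressive cystic disease. RC/RC:*Casp1*KO mice carried the same *Pkd1* alleles and, on both chromosomes, 1 deletion in *Casp1* named Del3, which removes the codon of the active-site cysteine of Caspase-1 and a splice donor. Neither allele is limited to a cell type, so every cell of the kidney carried them. Mice are named below as in the table, B6_2, B6_3, B6_4 and B6_6 for WT, RC105, RC139, RC140 and RC143 for RC/RC, and Del3_42, Del3_60, Del3_70 and Del3_105 for RC/RC:*Casp1*KO. These names carry neither sex nor a replicate number, so females and males were analysed together. Libraries of WT mice held 20556335 to 22656309 counted reads, those of RC/RC mice 18019819 to 24284831, and those of RC/RC:*Casp1*KO mice 18738755 to 24869454. Kidney markers were high in every library: 6 markers of the proximal tubule summed to at least 4873.5 CPM (a gene's count relative to all counts of its library, scaled with TMM factors) and 3 of the thick ascending limb to at least 3103 CPM in each mouse.

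*Casp1* was read first, as a check of the labels. It stood at 2.06, 1.29, 1.298 and 1.41 CPM in B6_2, B6_3, B6_4 and B6_6. In RC105, RC139, RC140 and RC143 it stood at 3.37, 3.84, 4.26 and 2.62 CPM, and in Del3_42, Del3_60, Del3_70 and Del3_105 at 0.665, 0.385, 1.05 and 0.664 CPM. The 4 knockout mice had the lowest values of the 12 and the 4 RC/RC mice the highest. *Casp1* was higher in RC/RC than in WT (log2 fold change 1.21, edgeR adjusted p = 0.0142) and lower in RC/RC:*Casp1*KO than in RC/RC (log2 fold change -2.35, edgeR adjusted p = 0.00514). Del3 takes out a short stretch of the gene, so a remaining RNA level says nothing of the protein.

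Libraries of a group did not all lie equally close to each other. The chi-square between 2 libraries of a group, per degree of freedom over genes, was 17.7 for B6_2 with B6_3 and 16.4 for B6_4 with B6_6, against 89.8 to 127 for the other WT pairs. Among the knockout mice it was 15.7 for Del3_60 with Del3_105 and 31.8 for Del3_42 with Del3_70, against 67.1 to 93.4 for the others. Among the RC/RC mice it was 37.2 for RC140 with RC143, against 67.6 to 128 for the others. WT and knockout mice therefore fell into 2 pairs each, RC/RC mice into 1 close pair and 2 further mice, and several members described below followed these pairs within a group. Whether the pairs are the sexes cannot be told from the labels of the columns.

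Of the 43 entries, 39 were tested in all 3 comparisons and 40 in at least 1. *Adcy8*, *Pde6b* and *Pde6c* had too few counts in any. *Adcy8*, a calcium-stimulated cyclase, held 29 counts over the 12 libraries and *Pde6b*, a subunit of the photoreceptor phosphodiesterase, held 26. *Pde6c*, its cone counterpart, held 0 counts in every library, which at 3 counts a library allows up to 0.166 CPM, the value in Del3_42. *Adcy10*, the soluble cyclase that responds to bicarbonate, held 155 counts and was tested in the 2 comparisons with RC/RC:*Casp1*KO.

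In RC/RC against WT, 3 of 39 members (7.69%) were called at an adjusted p below 0.05, against 12.9% of the 15243 genes tested, 9.76% higher and 3.18% lower. *Adcy7* rose, and *Adcy1* and *Pde4c* fell. The median log2 fold change was 0.02 over the members and -0.02 over all genes tested. Values of RC/RC and WT mice did not overlap for 4 members (10.3%), the 3 called and *Pde5a*, against 19.3% of all genes tested. The members called or apart were thus no more common than in the genome at large, and what follows concerns single genes.

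In RC/RC:*Casp1*KO against RC/RC, 4 of 40 members (10%) were called, against 11.6% of the 15428 genes tested, 7.23% higher and 4.41% lower. *Pde4c*, *Pde7a* and *Pde9a* rose, and *Prkar1b* fell. The median log2 fold change was -0.06 over the members and -0.03 over all genes tested. The groups did not overlap for 7 members (17.5%), the 4 called and *Adcy9*, *Prkaca* and *Prkar1a*, against 20.5% of all genes tested.

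In RC/RC:*Casp1*KO against WT, 0 of 40 members were called by edgeR's quasi-likelihood test, against 2.03% of the 15346 genes tested, 1.13% higher and 0.893% lower. At an unadjusted p under 0.05 there were 8 members, where 21.8% of all genes tested passed that mark. DESeq2 called 1 member, *Adcy7*. The groups did not overlap for 1 member, again *Adcy7*, against 13.7% of all genes tested. The median log2 fold change was 0.01 over the members and 0.01 over all genes. The 3 comparisons share mice in pairs, so their calls are not separate evidence.

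**Figure D1:**
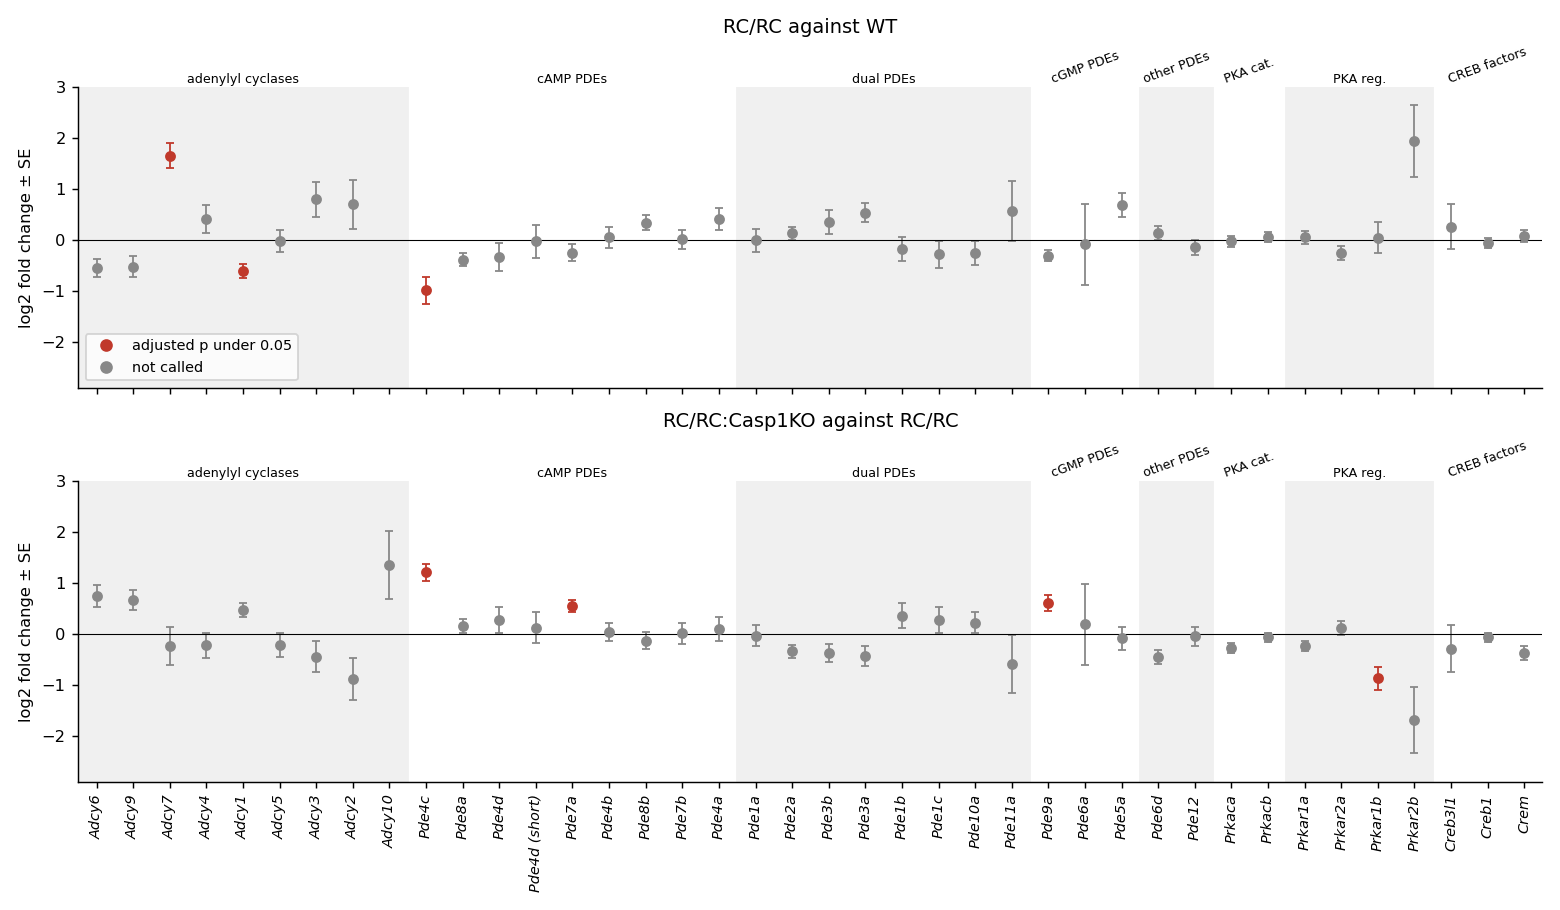
Log2 fold change with its standard error for each tested member in RC/RC against WT (top) and RC/RC:*Casp1*KO against RC/RC (bottom), by family and, within a family, by level per length; red points have an adjusted p below 0.05 (edgeR, 4 mice a group). *Adcy7* at 1.66 stands above zero in the top panel, *Pde4c* lies at -0.99 in the top panel and at 1.22 in the bottom panel, and the grey points lie within 1 of zero except *Prkar2b* in both panels and *Adcy10* in the bottom panel.

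Levels were compared between genes only per length, as FPKM, each count divided by the gene's length and by the reads counted in its library. Over the 12 mice the most abundant members were *Prkar1a* at 81.1 FPKM, *Prkaca* at 45.0, *Pde4c* at 24.0, *Adcy6* at 23.5 and *Prkacb* at 22.1. *Pde1a* at 19.2, *Pde8a* at 18.9 and *Prkar2a* at 18.2 FPKM followed. Most members were thus far below the main PKA subunits, and in most families a single gene held the largest part of the level.

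**Figure D2:**
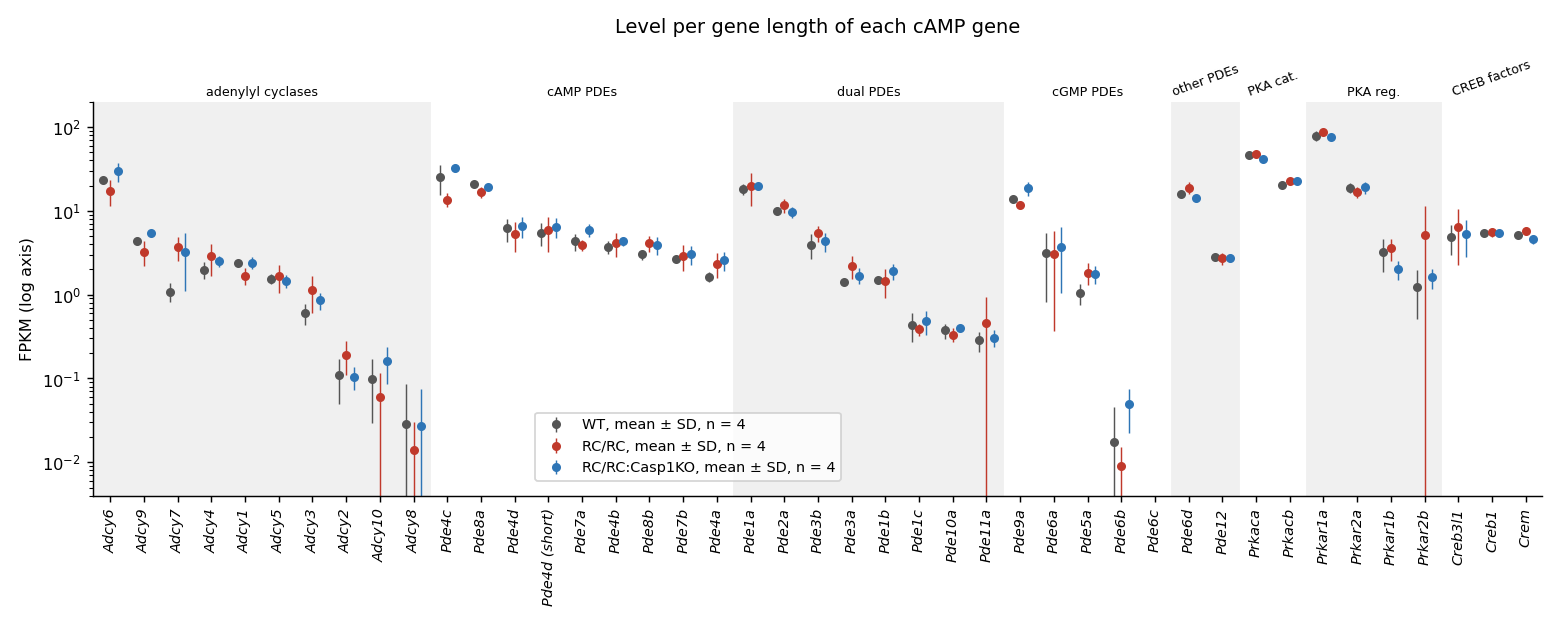
Mean FPKM (log axis) with SD in the 4 mice of each group for every member, ordered by family and level; *Pde6c*, at 0 in all mice, has no point. *Adcy6*, *Pde4c*, *Pde1a*, *Pde9a*, *Prkaca* and *Prkar1a* lead their families in each group except that *Pde8a* lies above *Pde4c* in RC/RC.

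Among the adenylyl cyclases the abundant form was *Adcy6*, a membrane cyclase inhibited by calcium and the main cyclase of many renal epithelia. It made up 65.7% ± 1.64 (SD, n = 4) of the summed cyclase FPKM in WT, 53.9% ± 5.70 in RC/RC and 64.3% ± 5.37 in RC/RC:*Casp1*KO. *Adcy9*, a broadly expressed cyclase, came next. The changes called were in forms less abundant than *Adcy6*, namely *Adcy7* and *Adcy1*, and they went in opposite directions.

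*Adcy7* encodes a cyclase known for its expression in cells of the immune system. It is on chromosome 8 at 88272403 to 88329962 (ENSMUSG00000031659, + strand, mm10). It stood at 6.27, 4.98, 8.09 and 8.67 CPM in B6_2, B6_3, B6_4 and B6_6, and at 24.2, 30.03, 18.02 and 16.7 CPM in RC105, RC139, RC140 and RC143. In Del3_42, Del3_60, Del3_70 and Del3_105 it stood at 11.2, 14.8, 36.5 and 12.9 CPM. Every RC/RC and every knockout mouse lay above every WT mouse, and Del3_70 had the highest value of all 12 while the other 3 knockout mice lay below the RC/RC mice.

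*Adcy7* was 3.15-fold higher in RC/RC than in WT (log2 fold change 1.66, SE 0.242, edgeR adjusted p = 0.00284), and it was called under all 16 alternatives run, leaving out each mouse included. Its share of the summed cyclase FPKM was 3.05% ± 0.75 in WT, 11.7% ± 2.36 in RC/RC and 7.16% ± 4.63 in RC/RC:*Casp1*KO. Against RC/RC, the knockout level gave a log2 fold change of -0.24 (edgeR adjusted p = 0.6902), and without Del3_70 of -0.77 (adjusted p = 0.0593). Against WT the knockout level gave 1.44 (edgeR adjusted p = 0.0971), and without Del3_70 it gave 0.89 (edgeR adjusted p = 0.120).

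Markers of macrophages and dendritic cells moved with *Adcy7*. Of the 8 listed, 7 were in the table, all 7 were higher in RC/RC than in WT without overlap of the groups, 6 of them called, and their summed level was 137 CPM ± 12.1 in WT, 379 ± 57.5 in RC/RC and 245 ± 82.1 in RC/RC:*Casp1*KO (SD, n = 4). *Csf1r*, the receptor for macrophage colony-stimulating factor, was the most abundant of them in each group, none was at 0, and Del3_70 had the highest sum of the knockout mice at 362 CPM against 172, 232 and 214.7 in Del3_42, Del3_60 and Del3_105. For comparison, 9.76% of all genes tested rose in RC/RC against WT, and the groups did not overlap for 19.3%. The part of these markers in the *Adcy7* result was not tested. In whole kidney a smaller number of cells of a type and less RNA per cell cannot be told apart. The annotation also has 13% of the exon bases of *Adcy7* in common with *Brd7* on the opposite strand, whose own log2 fold change was -0.14 (edgeR adjusted p = 0.321).

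*Adcy1*, a calcium-stimulated cyclase best known from neurons, is on chromosome 11 at 7063489 to 7178506 (ENSMUSG00000020431, + strand). It stood at 30.9, 35.3, 27.7 and 29.1 CPM in B6_2, B6_3, B6_4 and B6_6, and at 25.9, 18.1, 18.1 and 19.3 CPM in RC105, RC139, RC140 and RC143. The knockout mice Del3_42, Del3_60, Del3_70 and Del3_105 stood at 24.4, 34.1, 27.1 and 27.2 CPM. All RC/RC mice were below all WT mice, with RC105 well above the other 3, and the knockout values overlapped both groups.

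*Adcy1* was 1.52-fold lower in RC/RC than in WT (log2 fold change -0.60, SE 0.139, edgeR adjusted p = 0.0206). Its call was lost without RC140 (adjusted p = 0.0629), without B6_3 (0.0586), with library size alone (0.0712) and with limma on log2(FPKM + 1) (0.103). In RC/RC:*Casp1*KO against RC/RC the log2 fold change was 0.47 (edgeR adjusted p = 0.0602), which passed the mark with DESeq2 (0.0374), a dispersion shared by 12 mice (0.0429), 1 surrogate variable (0.0343) and without RC105 (0.0255).

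*Adcy6* (ENSMUSG00000022994, chromosome 15, 98589994 to 98607633, - strand) stood at 133, 158, 158 and 147 CPM in B6_2, B6_3, B6_4 and B6_6. In RC105, RC139, RC140 and RC143 it stood at 145, 93.1, 77.8 and 92.7 CPM, and in Del3_42, Del3_60, Del3_70 and Del3_105 at 126, 204, 148 and 204 CPM. RC139, RC140 and RC143 were the 3 lowest of the 12, while RC105 lay among the WT mice. *Adcy6* was not called in RC/RC against WT (log2 fold change -0.55, SE 0.185, edgeR adjusted p = 0.0837) or in RC/RC:*Casp1*KO against RC/RC (0.74, SE 0.219, adjusted p = 0.0561). With all mice kept, DESeq2 called it in both (adjusted p = 0.0254 and 0.0137), and in the second it was also called by edgeR with a dispersion shared by 12 mice (0.0350) and with 1 surrogate variable, a covariate estimated from the data (0.0130). Without RC105 it was called by edgeR in both, at -0.78 (adjusted p = 0.00908) and 0.93 (adjusted p = 0.0220).

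*Adcy9*, chosen after its values were seen, stood at 21.003, 21.6, 25.3 and 23.7 CPM in B6_2, B6_3, B6_4 and B6_6, at 21.6, 11.8, 11.7 and 18.9 CPM in RC105, RC139, RC140 and RC143, and at 24.6, 27.97, 25.2 and 24.7 CPM in Del3_42, Del3_60, Del3_70 and Del3_105. All knockout mice lay above all RC/RC mice, but the difference was not called (log2 fold change 0.68, edgeR adjusted p = 0.0534). It was called with DESeq2 (0.0168), a dispersion shared by 12 mice (0.0332) and 1 surrogate variable (0.0439), and by edgeR without RC105 (0.0263) or RC143 (0.0450). *Adcy3*, *Adcy4* and *Adcy5* were not called by edgeR in any comparison or under any alternative, and each of the remaining forms, *Adcy2* and *Adcy10*, had a mean below 1 CPM in every group.

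The summed level of the cyclases was 33.4, 36.3, 38.3 and 34.8 FPKM in B6_2, B6_3, B6_4 and B6_6. It was 42.4, 34.9, 23.5 and 26.7 FPKM in RC105, RC139, RC140 and RC143, and 32.7, 52.2, 45.8 and 53.1 FPKM in Del3_42, Del3_60, Del3_70 and Del3_105. By FPKM RC/RC mice spread on both sides of the WT mice, and 3 of the 4 knockout mice were the highest of the 12. By summed CPM 3 of the 4 RC/RC mice (148.5 to 196 CPM) lay below all WT mice (217 to 244 CPM), RC105 lay among them at 243 CPM, and the same 3 knockout mice were again the highest.

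**Figure D3:**
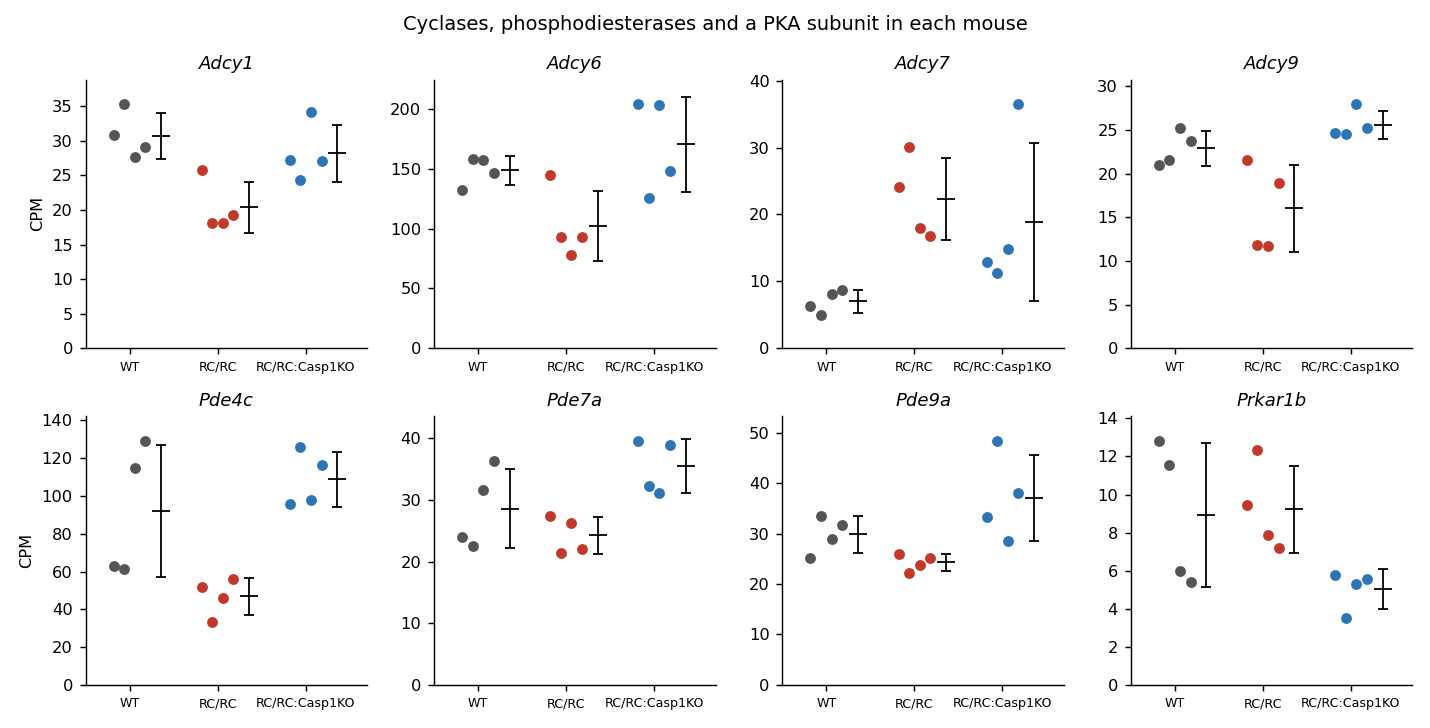
CPM of 8 members in each mouse (points), with the mean and SD of the 4 mice of a group beside them. *Adcy7* lies between 4.98 and 8.67 CPM in WT and between 16.7 and 30.03 CPM in RC/RC, and *Pde4c* lies between 33.5 and 55.9 CPM in RC/RC and between 95.6 and 126 CPM in RC/RC:*Casp1*KO.

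Phosphodiesterases that hydrolyse cAMP alone are the *Pde4*, *Pde7* and *Pde8* genes. *Pde4c* and *Pde8a* held most of their level, and *Pde4c* was the member with the lowest p in the knockout against RC/RC. It fell in RC/RC against WT and stood in the knockout mice near its higher WT values. *Pde7a* rose in the knockout mice. None of the other 6 cAMP-specific genes was called by edgeR in any comparison, though *Pde8a* was called lower in RC/RC than in WT with a dispersion shared by 12 mice and without RC143, and *Pde4a* higher in the knockout than in WT without Del3_42.

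*Pde4c*, a cAMP-specific phosphodiesterase reported at the primary cilium together with polycystin-2, is on chromosome 8 at 70723720 to 70751186 (ENSMUSG00000031842, + strand). It stood at 63.1, 61.3, 115 and 129 CPM in B6_2, B6_3, B6_4 and B6_6, and at 51.6, 33.5, 46.1 and 55.9 CPM in RC105, RC139, RC140 and RC143. In Del3_42, Del3_60, Del3_70 and Del3_105 it stood at 126, 97.6, 116 and 95.6 CPM. The RC/RC mice were the 4 lowest, the knockout mice lay together at high values, and the WT mice split into 2 low and 2 high ones along the library pairs described above.

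*Pde4c* was 2.32-fold higher in RC/RC:*Casp1*KO than in RC/RC (log2 fold change 1.22, SE 0.169, edgeR adjusted p = 0.00523), and it was called under all 16 alternatives run, with log2 fold changes of 1.11 to 1.33. In RC/RC against WT it was 1.98-fold lower (log2 fold change -0.99, SE 0.273, edgeR adjusted p = 0.0433). That call of edgeR was lost without RC105 (adjusted p = 0.0698), RC139 (0.108), RC140 (0.105), B6_4 (0.0873) or B6_6 (0.114). It was also lost with library size alone (0.0579), with at least 10 counts in every mouse (0.0503) and with limma (0.0827). *Pde4c* held 34.2% ± 10.6 of the summed FPKM of the cAMP-specific group in WT, 23.2% ± 4.09 in RC/RC and 38.7% ± 5.31 in RC/RC:*Casp1*KO.

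*Pde7a* (ENSMUSG00000069094, chromosome 3, 19223108 to 19311322, - strand), a cAMP-specific enzyme with low sensitivity to rolipram, stood at 23.97, 22.6, 31.6 and 36.3 CPM in B6_2, B6_3, B6_4 and B6_6. In RC105, RC139, RC140 and RC143 it stood at 27.3, 21.5, 26.2 and 22.03 CPM, and in Del3_42, Del3_60, Del3_70 and Del3_105 at 32.3, 31.1, 38.9 and 39.6 CPM. The knockout mice lay above all RC/RC mice, and WT mice spanned both. It was higher in the knockout than in RC/RC by a log2 fold change of 0.55 (SE 0.123, edgeR adjusted p = 0.0265). The call was lost without RC139 (adjusted p = 0.0634), RC140 (0.0596), Del3_105 (0.0826) or Del3_70 (0.0551), and with limma (0.0625).

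*Pde8a*, a cAMP-specific enzyme of high affinity, had the next highest level, 18.9 FPKM over the 12 mice, and gave a log2 fold change of -0.38 in RC/RC against WT (edgeR adjusted p = 0.0894). *Pde4a*, *Pde4b*, *Pde7b*, *Pde8b* and both *Pde4d* entries had means between 2.19 and 6.02 FPKM over the 12 mice. The summed level of the cAMP-specific group was 60.98, 60.4, 71.2 and 74.9 FPKM in B6_2, B6_3, B6_4 and B6_6. It was 65.1, 50.5, 47.1 and 52.2 FPKM in RC105, RC139, RC140 and RC143, and 75.9, 78.5, 79.2 and 80.2 FPKM in Del3_42, Del3_60, Del3_70 and Del3_105. By FPKM all knockout mice lay above all other mice, and 3 of the 4 RC/RC mice were the lowest of the 12. By summed CPM (TMM-scaled, not per length) all RC/RC mice lay below all WT mice, which stood at 239 to 298 CPM. The knockout mice, at 279.8 to 293 CPM, lay above all RC/RC mice (181 to 229.98 CPM), but the separation from WT was lost, since B6_6 stood at 298 CPM, above all knockout mice. Both *Pde4d* entries were counted in these sums, although *Pde4d* (short) was not found in the GENCODE vM39 annotation. That entry held 7.62% ± 2.78 of the summed FPKM in WT, 9.66% ± 3.37 in RC/RC and 7.56% ± 1.90 in RC/RC:*Casp1*KO. No test was made of a sum.

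The summed markers of the proximal tubule and of the distal convoluted tubule, like *Pde4c*, had their lowest group mean in RC/RC. Of the 6 proximal tubule markers, 2 fell in RC/RC against WT (*Cubn* and *Slc5a2*) and 2 rose in RC/RC:*Casp1*KO against RC/RC (*Cubn* and *Lrp2*), with a summed level of 12669 CPM ± 2738 in WT, 7744 ± 2553 in RC/RC and 12375 ± 1123 in RC/RC:*Casp1*KO (SD, n = 4). *Slc34a1*, the phosphate cotransporter, was the most abundant of these in each group. The 3 distal convoluted tubule markers, led by *Slc12a3*, summed to 1017 CPM ± 157, 259 ± 121 and 680 ± 253 in the same order, and 2 of them fell in RC/RC. Within the knockout mice this distal sum did not follow *Pde4c*. Del3_42 had the highest *Pde4c* level of them, 126 CPM, and the lowest distal sum, 359 CPM. For comparison, 3.18% of all genes tested fell in RC/RC against WT, and 7.23% rose in RC/RC:*Casp1*KO against RC/RC. The part of these segment markers in the result for *Pde4c* was not tested.

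**Figure D4:**
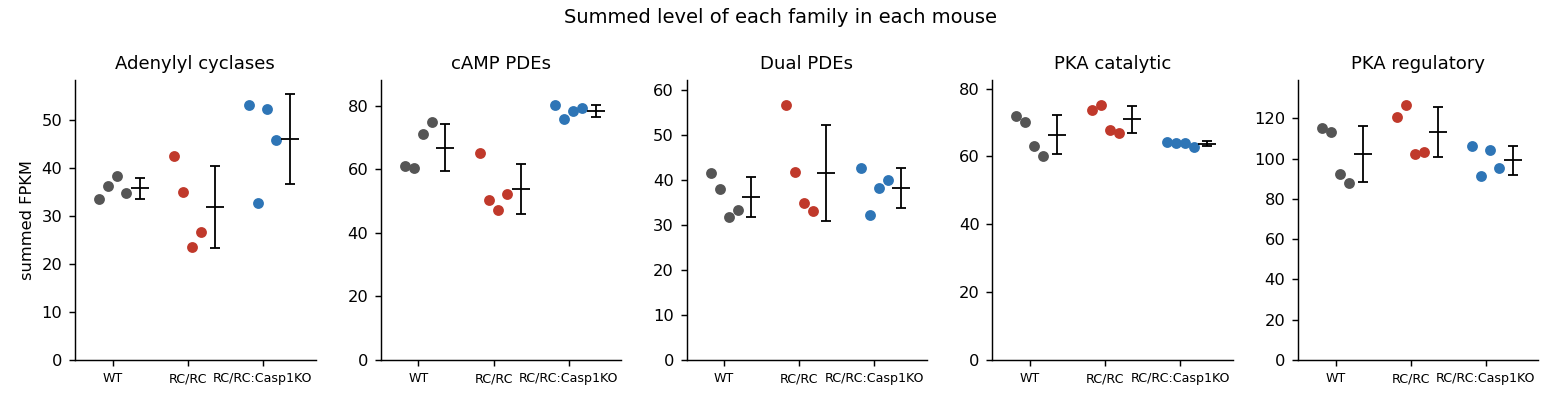
Summed FPKM of 5 families in each mouse (points), with the mean and SD of each group of 4 mice. The cAMP-specific phosphodiesterases lie between 75.9 and 80.2 FPKM in the knockout mice, above every mouse of the other 2 groups (by CPM, B6_6 at 298 lies above all knockout mice), and the PKA catalytic subunits lie lower in the knockout mice (62.8 to 64.2 FPKM) than in the RC/RC mice (67.05 to 75.1 FPKM), while the other 3 families overlap between all groups by FPKM, though by CPM the regulatory subunits lie lower in the knockout (314.8 to 360.5) than in RC/RC mice (379 to 423).

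Phosphodiesterases that hydrolyse both cAMP and cGMP are the *Pde1*, *Pde2a*, *Pde3*, *Pde10a* and *Pde11a* genes. None of the 8 was called by edgeR in any comparison, with 1 at an unadjusted p under 0.05 in RC/RC against WT (*Pde3a*), 1 in the knockout against RC/RC (*Pde2a*) and none in the knockout against WT, and DESeq2 called none. Of all genes tested, edgeR called 12.9%, 11.6% and 2.03% in these comparisons, in that order. At an unadjusted p under 0.05 there were 29.2%, 31.7% and 21.8% of all genes tested. *Pde3a* was called higher in RC/RC than in WT without RC143, and *Pde3b* lower in the knockout than in RC/RC with 1 surrogate variable. *Pde1a*, which calcium and calmodulin activate, was the most abundant at 19.2 FPKM over the 12 mice, and its log2 fold changes were -0.01 in RC/RC against WT and -0.04 in RC/RC:*Casp1*KO against RC/RC. It stood at 91.7, 95.4, 66.1 and 75.4 CPM in B6_2, B6_3, B6_4 and B6_6 and at 129, 60.5, 69.9 and 70.1 CPM in RC105, RC139, RC140 and RC143. In Del3_42, Del3_60, Del3_70 and Del3_105 it stood at 76.8, 80.3, 78.3 and 83.8 CPM, so that RC105 was far above all other mice. *Pde3a*, the enzyme that cGMP inhibits, gave 0.53 in RC/RC against WT (edgeR adjusted p = 0.0934), and *Pde2a*, which cGMP activates, gave -0.33 in the knockout against RC/RC (adjusted p = 0.110).

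Among the phosphodiesterases of cGMP, *Pde9a*, an enzyme with very high affinity for cGMP, held 77.8% ± 10.9 of the group's FPKM in WT, 71.6% ± 10.7 in RC/RC and 78.4% ± 7.26 in RC/RC:*Casp1*KO. It is on chromosome 17 at 31386234 to 31476310 (ENSMUSG00000041119, + strand). It stood at 25.2, 33.6, 29.01 and 31.7 CPM in B6_2, B6_3, B6_4 and B6_6, at 26.01, 22.2, 23.7 and 25.2 CPM in RC105, RC139, RC140 and RC143, and at 48.4, 28.6, 37.99 and 33.2 CPM in Del3_42, Del3_60, Del3_70 and Del3_105. The RC/RC mice lay close together below all knockout mice and overlapped the WT mice.

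*Pde9a* was higher in RC/RC:*Casp1*KO than in RC/RC by a log2 fold change of 0.61 (SE 0.157, edgeR adjusted p = 0.0398). The edgeR call was lost without RC139 (adjusted p = 0.0865), RC140 (0.104), RC143 (0.0518), Del3_42 (0.0714), Del3_70 (0.0727) or Del3_105 (0.0795). *Pde5a*, the target of sildenafil and known from smooth muscle, was chosen after its values were seen. It stood at 5.45, 6.32, 9.89 and 8.29 CPM in B6_2, B6_3, B6_4 and B6_6, at 10.9, 16.7, 10.5 and 10.5 CPM in RC105, RC139, RC140 and RC143, and at 13.96, 8.85, 13.9 and 9.06 CPM in Del3_42, Del3_60, Del3_70 and Del3_105. All RC/RC mice lay above all WT mice, but the difference was not called (log2 fold change 0.69, edgeR adjusted p = 0.0920).

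*Pde6a*, a catalytic subunit of the rod phosphodiesterase, was also chosen after its values were seen. It stood at 4.11, 6.75, 24.6 and 22.8 CPM in B6_2, B6_3, B6_4 and B6_6, at 3.95, 2.47, 21.8 and 27.2 CPM in RC105, RC139, RC140 and RC143, and at 28.4, 5.502, 23.9 and 6.21 CPM in Del3_42, Del3_60, Del3_70 and Del3_105. In each group 2 mice were low and 2 were high, with no value between 6.75 and 21.8 CPM. In WT and the knockout the high mice were the pairs described above, and in RC/RC they were RC140 and RC143. No difference between groups was called. *Pde6d* and *Pde12*, which carry the family name but act as a binding partner of prenylated proteins and as a mitochondrial RNase, were not called by edgeR in any comparison. *Pde6d*, the more abundant per length, stood at 23.5, 24.1, 20.7 and 19.9 CPM in B6_2, B6_3, B6_4 and B6_6, at 20.6, 28.8, 25.4 and 22.8 CPM in RC105, RC139, RC140 and RC143, and at 20.8, 17.4, 18.4 and 14.8 CPM in Del3_42, Del3_60, Del3_70 and Del3_105. Del3_60, Del3_70 and Del3_105 were the 3 lowest of the 12, and Del3_42 lay just above RC105. The log2 fold change in the knockout against RC/RC was -0.45 (edgeR adjusted p = 0.0683), and it was called lower there with DESeq2, with a dispersion shared by 12 mice, with 1 surrogate variable and without RC105.

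PKA is built of 2 catalytic and 2 regulatory subunits, and both kinds were among the most abundant members. *Prkaca*, the main catalytic subunit, stood at 119.9, 119, 103 and 101 CPM in B6_2, B6_3, B6_4 and B6_6. It stood at 106, 115, 109 and 106 CPM in RC105, RC139, RC140 and RC143, and at 103, 88.1, 84.1 and 86.9 CPM in Del3_42, Del3_60, Del3_70 and Del3_105. All knockout mice lay below all RC/RC mice, Del3_42 only just, and the difference was not called (log2 fold change -0.27, edgeR adjusted p = 0.103). *Prkaca* made up 68.97% ± 0.718 of the catalytic FPKM in WT, 67.7% ± 1.801 in RC/RC and 64.4% ± 2.10 in RC/RC:*Casp1*KO, and *Prkacb* the rest. The sum of both was 62.8 to 64.2 FPKM in the knockout mice, below its 67.05 to 75.1 FPKM in RC/RC mice, and 60.2 to 72.1 FPKM in WT mice.

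*Prkar1a*, the main type I regulatory subunit, stood at 325, 332, 254 and 258 CPM in B6_2, B6_3, B6_4 and B6_6. It stood at 313, 306, 305 and 294 CPM in RC105, RC139, RC140 and RC143, and at 263, 265, 244 and 259 CPM in Del3_42, Del3_60, Del3_70 and Del3_105. The knockout mice lay below the RC/RC mice without overlap and the WT mice split into 2 high and 2 low ones, again along the library pairs. The difference between knockout and RC/RC was not called (log2 fold change -0.24, edgeR adjusted p = 0.135), though DESeq2 called it (adjusted p = 0.0170).

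The regulatory subunit that was called is a minor one. *Prkar1b*, a type I subunit best known from brain, is on chromosome 5 at 139017306 to 139150001 (ENSMUSG00000025855, - strand). It stood at 12.8, 11.5, 5.99 and 5.39 CPM in B6_2, B6_3, B6_4 and B6_6, at 9.46, 12.4, 7.88 and 7.17 CPM in RC105, RC139, RC140 and RC143, and at 3.49, 5.31, 5.54 and 5.79 CPM in Del3_42, Del3_60, Del3_70 and Del3_105. The knockout mice were all below the RC/RC mice, while 2 WT mice lay with the knockouts and 2 with the highest RC/RC mouse.

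*Prkar1b* was 1.83-fold lower in RC/RC:*Casp1*KO than in RC/RC (log2 fold change -0.87, SE 0.225, edgeR adjusted p = 0.0400). The edgeR call was lost without RC139 (adjusted p = 0.108), RC140 (0.0754), Del3_42 (0.0762), Del3_60 (0.0857), Del3_70 (0.0588) or Del3_105 (0.0803). It was also lost with library size alone (0.0875), a dispersion shared by 12 mice (0.0694) and limma (0.0867). *Prkar1b* held 3.05% ± 0.904 of the regulatory FPKM in WT, 3.101% ± 0.597 in RC/RC and 2.01% ± 0.439 in the knockout. It shares 7.56% of its exon bases with *Gm15672* and *Heatr2*, and *Heatr2* gave a log2 fold change of 0.28 in the same comparison (edgeR adjusted p = 0.155).

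*Prkar2b*, a type II subunit known from adipose tissue and brain, was chosen after its values were seen, because 1 library set its mean. It stood at 3.25, 3.49, 7.94 and 2.67 CPM in B6_2, B6_3, B6_4 and B6_6, at 6.44, 45.97, 5.88 and 8.81 CPM in RC105, RC139, RC140 and RC143, and at 5.54, 4.73, 3.68 and 6.88 CPM in Del3_42, Del3_60, Del3_70 and Del3_105. RC139 was far above the other 11 mice. The log2 fold change in RC/RC against WT was 1.95 (edgeR adjusted p = 0.105), and without RC139 it was 0.67 (adjusted p = 0.342). RC139 also had the highest summed level of fibroblast markers, 1298 CPM, and of smooth muscle and pericyte markers, 796 CPM, of the 12 mice, and *Adrb3*, the beta-3 adrenergic receptor best known from fat cells and also chosen after its values were seen, stood at 21.04 CPM in RC139 against 0 to 2.15 CPM in the other 11 mice. Their part in the *Prkar2b* value was not tested. *Prkar2a*, the more abundant type II subunit, was not called in any comparison or under any alternative.

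The summed regulatory FPKM exceeded the catalytic FPKM in every mouse. The ratio was 1.53 ± 0.0815 in WT, 1.59 ± 0.0838 in RC/RC and 1.56 ± 0.106 in RC/RC:*Casp1*KO (SD, n = 4), and the ranges overlapped. Phosphodiesterases that accept cAMP summed to 3.07 ± 0.231 times the cyclase FPKM in WT, 3.22 ± 0.358 times in RC/RC and 2.76 ± 0.488 times in RC/RC:*Casp1*KO. These ratios are of transcript levels per length and say nothing of enzyme activity.

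Of the transcription factors, none was called by edgeR or DESeq2 in any comparison, and *Crem* passed an unadjusted p of 0.05 in both comparisons with the knockout, with log2 fold changes of -0.37 against RC/RC and -0.28 against WT. It was called lower than in RC/RC without RC105. *Creb3l1*, a membrane-bound factor of the endoplasmic reticulum that acts on collagen and secretory genes, had the highest mean at 5.50 FPKM over the 12 mice, close to *Creb1* at 5.49 and *Crem* at 5.14. It stood at 15.4, 20.01, 8.19 and 9.98 CPM in B6_2, B6_3, B6_4 and B6_6, at 21.4, 26.9, 8.58 and 7.26 CPM in RC105, RC139, RC140 and RC143, and at 9.25, 17.9, 6.95 and 18.1 CPM in Del3_42, Del3_60, Del3_70 and Del3_105. Each group held 2 low and 2 high mice along these library pairs, with RC140 and RC143 low in RC/RC, and the groups overlapped. *Creb1* lay within 39.7 to 52.3 CPM in all 12 mice.

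CREB binds the cAMP response element, and promoters were searched for it to give the sequence context of the members. Of the 42 symbols, 32 matched a RefSeq promoter table (GRCm38.p6, the assembly also called mm10), in 69 windows of 300 bases that run from 250 before to 50 after a transcript start. The full element TGACGTCA, which reads the same on both strands, was in 1.79% of all 32851 windows and in 2 of the 69 member windows, which overlap each other and are both of *Prkar1a*. The shorter core TGACG, on either strand and counted also inside the full element, was in 20.8% of all windows and in 15 of the 69 member windows (21.7%). By gene it was in 13 of 32 members (40.6%) against 23% of all genes. Members had more windows per gene (69 for 32 genes) than all genes (32851 for 27025), so the shares by gene are not like for like. A match is a description and not a bound site. The stretches printed here are for *Prkar1a*, the only member with the full element, and for *Adcy7* and *Prkar1b*, the called members with the core alone. They run 5′ to 3′ on the strand of the gene, with the match in capitals. In *Adcy7* the core is on the other strand and reads as its reverse complement. The windows of *Pde4c* and *Adcy1* held neither motif, which says only that these letters are not there, and *Pde7a* and *Pde9a* were not in the table.
Prkar1a (chr11:109650889-109650918, + strand): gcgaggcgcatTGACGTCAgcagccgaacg
Adcy7 (chr8:88282952-88282981, + strand): tgatcatagagcCGTCAggggggtggggct
Prkar1b (chr5:139150033-139150062, - strand): tagagggcggagTGACGggcaggaggacga

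Upstream of the cyclases, 15 receptors coupled to Gs were tested in RC/RC against WT, of which 7 rose and 1 fell (53.3%, against 12.9% of all genes tested), with a median log2 fold change of 0.67. *Ptger4*, a receptor for prostaglandin E2, rose by 1.504 on the log2 scale (SE 0.225, edgeR adjusted p = 0.00315) and *Adcyap1r1*, the receptor for PACAP, by 1.49 (SE 0.261, adjusted p = 0.00646). *Gpr65*, a proton-sensing receptor of leukocytes, rose by 1.41 (SE 0.281, edgeR adjusted p = 0.0115). The receptor that fell was *Gcgr*, the glucagon receptor, at -0.76 (SE 0.165, edgeR adjusted p = 0.0164). The most abundant receptor of the list in each group was *Pth1r*, at 534 to 612 CPM in WT and 405 to 679 CPM in RC/RC mice. The summed level of the list, mostly *Pth1r*, was 670 CPM ± 42.7 (SD) in WT and 668 ± 117 in RC/RC. In RC/RC:*Casp1*KO it was 594 ± 66.8 CPM. The rise of single receptors was thus not seen in the summed level, which was not tested.

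*Ptger4* stood at 4.69, 4.404, 3.196 and 4.498 CPM in B6_2, B6_3, B6_4 and B6_6, at 10.002, 16.4, 12.4 and 9.06 CPM in RC105, RC139, RC140 and RC143, and at 6.15, 5.89, 7.82 and 6.97 CPM in Del3_42, Del3_60, Del3_70 and Del3_105. The 3 groups did not overlap, with the knockout between the others. In RC/RC:*Casp1*KO against RC/RC, 3 of 16 Gs-coupled receptors fell, *Ptger4* (-0.84), *Adora2a* (-1.29) and *Calcrl* (-0.76), and *Gcgr* rose (0.55), where 4.41% of all genes tested fell and 7.23% rose. In RC/RC:*Casp1*KO against WT 2 of 15 rose, *Glp1r* (1.94) and *Adcyap1r1* (1.32), where 1.13% of all genes tested rose. The immune and fibroblast markers that moved with these receptors are given below, and their part in the receptor values was not tested.

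**Figure D5:**
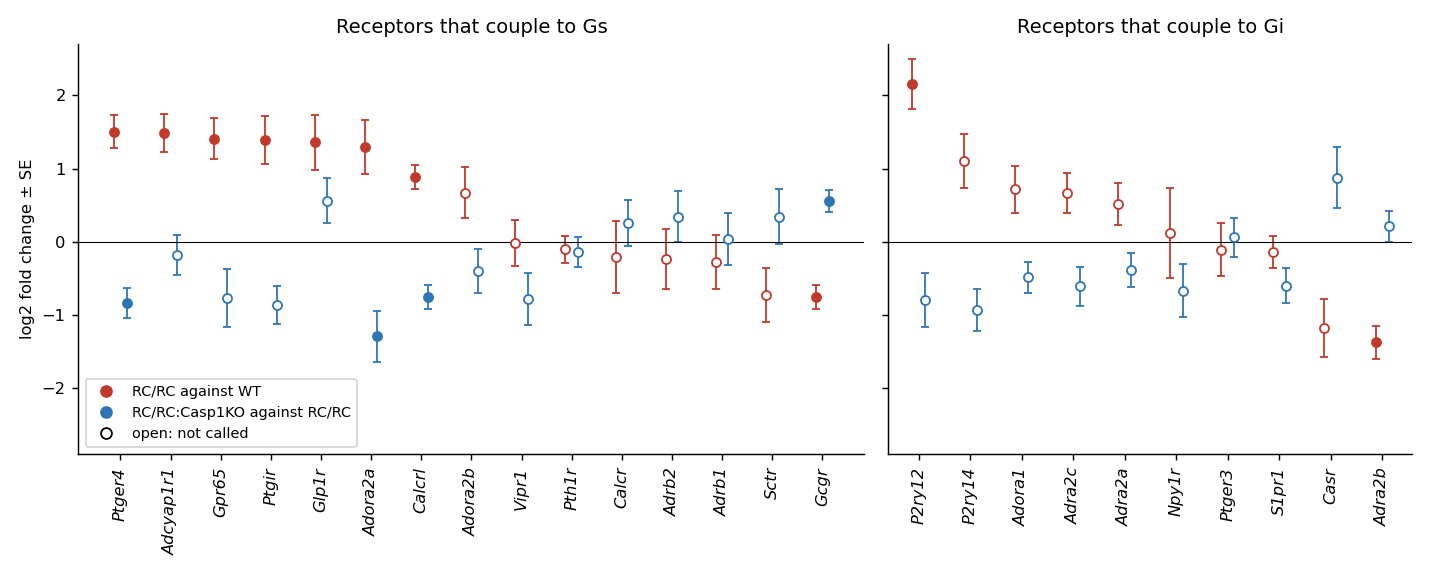
Log2 fold change with its standard error of the receptors coupled to Gs (left) and Gi (right) that were tested in RC/RC against WT, in that comparison (red) and in RC/RC:*Casp1*KO against RC/RC (blue); filled points have an adjusted p below 0.05 (edgeR). *P2ry12* at 2.16 is the highest and *Adra2b* at -1.37 the lowest red point.

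*Avpr2*, the vasopressin receptor of the collecting duct, could not be read. Its level was between 0 and 0.32 CPM in all mice, and 81.3% of its exon bases lie in common with *Arhgap4* on the opposite strand, and how reads in such overlaps were counted is not given in the sources used here. *Gnas*, the gene of the Gs alpha subunit, stood at 8.85 to 19.3 CPM with a log2 fold change of 0.03 in RC/RC against WT, and 9.26% of its exon bases overlap *Nespas*. Values for *Avpr2* and *Gnas* are therefore uncertain. Among the members, *Pde1b* shares 35.4% of its exon bases with *Ppp1r1a* and *Adcy3* shares 19% with *Cenpo*, both on the opposite strand. *Pde12* shares 16.2% with *Arf4* and *9930004E17Rik*, and *Pde5a* 15.9% with *4933405D12Rik*, also on the opposite strand. *Adcy2* shares 12.2% with *1700001L19Rik* and *Adcy6* 8.69% with *RP23-204C16.3*, again on the opposite strand. The same doubt applies to the values of these members.

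Of 10 Gi-coupled receptors tested in RC/RC against WT, 1 rose and 1 fell, where 9.76% of all genes tested rose and 3.18% fell. *P2ry12*, an ADP receptor of platelets and microglia-like macrophages, rose by 2.16 on the log2 scale (SE 0.341, edgeR adjusted p = 0.00407), from 0.228 to 1.04 CPM on average. *Adra2b*, the adrenergic receptor of the proximal tubule, was the most abundant and fell by 1.37 (SE 0.223, edgeR adjusted p = 0.00466). It stood at 248, 246, 210.4 and 279 CPM in B6_2, B6_3, B6_4 and B6_6, at 95.6, 55.8, 108 and 123 CPM in RC105, RC139, RC140 and RC143, and at 115, 107, 107 and 115 CPM in Del3_42, Del3_60, Del3_70 and Del3_105. WT mice were far above all others, and *Adra2b* was also called lower in RC/RC:*Casp1*KO than in WT (log2 fold change -1.14, edgeR adjusted p = 0.000898). It was among 2 of 9 Gi-coupled receptors called lower there (22.2%), where 0.893% of all genes tested fell.

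Among 10 genes of G protein alpha subunits and of RAMPs, the partners of the calcitonin receptor family, 2 (20%) rose in RC/RC against WT, where 9.76% of all genes tested rose. The 2 were *Ramp1* (log2 fold change 1.495) and *Gnai2* (0.69), the alpha subunit of Gi. Both fell in RC/RC:*Casp1*KO against RC/RC, at -1.16 and -0.67, as did *Ramp2* (-0.87). These were 3 of 10 (30%), where 4.41% of all genes tested fell. *Gnai2*, an abundant transcript, averaged 191 CPM in WT, 309.8 in RC/RC and 195 in the knockout. None of the 10 was called in the knockout against WT, where 2.03% of all genes tested were called.

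Around PKA, 11 anchoring proteins (AKAPs) were tested, and *Akap12*, a scaffold of the cell cortex, rose in RC/RC against WT (log2 fold change 0.73, edgeR adjusted p = 0.0276) and fell in the knockout against RC/RC (-0.68, adjusted p = 0.0429). In that comparison the nuclear anchors *Akap8* (0.73) and *Akap8l* (0.79) rose. Of the 11, 1 (9.09%) was called in RC/RC against WT, against 12.9% of all genes tested. In the knockout against RC/RC 27.3% were called, 2 higher and 1 lower, against 11.6% of all genes tested. *Akap8l* stood at 26.1, 27.3, 55.4 and 60.5 CPM in B6_2, B6_3, B6_4 and B6_6, at 29.97, 33.2, 31.6 and 28.6 CPM in RC105, RC139, RC140 and RC143, and at 49.7, 49.3, 57.1 and 57.7 CPM in Del3_42, Del3_60, Del3_70 and Del3_105. RC/RC mice lay close to the low WT pair and knockout mice near the high one.

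The 4 genes of PKA inhibitor peptides and of the related kinase *Prkx* were not called by edgeR in any comparison. *Pkia* gave log2 fold changes of 0.25 in RC/RC against WT (edgeR adjusted p = 0.120) and -0.30 in the knockout against RC/RC (adjusted p = 0.0867), and *Pkib* gave 0.13 and -0.22. Of the exchange proteins that cAMP activates directly, *Rapgef3* (EPAC1) gave 0.40 in the knockout against RC/RC (edgeR adjusted p = 0.0502), without overlap of the groups, and *Rapgef4* (EPAC2) gave 0.12 (adjusted p = 0.599). The 4 genes of cAMP export and extracellular breakdown were not called by edgeR in any comparison.

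Of 9 CREB relatives, coactivators and their kinases, 0 were called in RC/RC against WT by edgeR (1 at an unadjusted p under 0.05). Of all genes tested, 12.9% were called there and 29.2% passed the unadjusted mark. The coactivators *Crtc1* (log2 fold change 0.49, edgeR adjusted p = 0.0176) and *Crtc2* (0.44, adjusted p = 0.0317) rose in the knockout against RC/RC. They were 2 of 9 (22.2%), where 7.23% of all genes tested rose. Of 13 genes that CREB is known to switch on, 4 rose and 2 fell in RC/RC against WT (46.2% against 12.9% of all genes), with a median log2 fold change of -0.51. *Egr1* rose by 1.81 (SE 0.244), *Junb* by 1.55 (SE 0.168) and *Fos* by 1.33 (SE 0.291), all immediate early genes that many other signals also switch on. *Dusp1*, an immediate early phosphatase, and *Ppargc1a*, a regulator of mitochondrial genes, fell, at -1.04 and -0.73. In the knockout against RC/RC, *Nr4a3* (-2.27), *Fosb* (-1.44) and *Junb* (-1.06) fell and none rose. These were 3 of 13 (23.1%), where 4.41% of all genes tested fell and 7.23% rose. *Pck1* was the most abundant of the list, so its summed level, 2972 CPM ± 1153 in WT, 1996 ± 599 in RC/RC and 1774 ± 311 in the knockout, mostly reflects that gene of gluconeogenesis.

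Transport proteins under cAMP control were not called by edgeR in any comparison, 9 being tested. *Aqp2*, the water channel of the collecting duct, gave a log2 fold change of 1.05 in RC/RC against WT (SE 0.339, edgeR adjusted p = 0.0739). It stood at 255, 369, 390.03 and 143 CPM in B6_2, B6_3, B6_4 and B6_6, at 391, 733, 804 and 474 CPM in RC105, RC139, RC140 and RC143, and at 410.3, 484, 303 and 373 CPM in Del3_42, Del3_60, Del3_70 and Del3_105. RC/RC mice were highest as a group, with RC105 level with the highest WT mouse. *Cftr*, the chloride channel of cyst secretion, stood between 3.58 and 11.9 CPM in all mice, with log2 fold changes of -0.59 and 0.19 in RC/RC against WT and in the knockout against RC/RC.

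On the cGMP side, 3 of 10 genes rose in RC/RC against WT (9.76% of all genes tested rose), *Nos2* (log2 fold change 1.52), *Gucy1a3* (0.95) and *Gucy1b3* (0.65), the inducible nitric oxide synthase and both subunits of the guanylyl cyclase that nitric oxide activates. *Gucy1b3* fell in the knockout against RC/RC (-0.68), and *Npr2*, the receptor for C-type natriuretic peptide, rose there (0.47) and against WT (0.54). Against RC/RC, 1 of 10 rose and 1 fell, where 7.23% of all genes tested rose and 4.41% fell. Against WT, 1 of 10 rose, where 1.13% of all genes tested rose.

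Cell type markers moved between the groups in most lists. For comparison, 9.76% of all genes tested rose in RC/RC against WT, and 4.41% fell in RC/RC:*Casp1*KO against RC/RC. In RC/RC against WT, 6 of 6 lymphocyte markers rose, led in level by *Ptprc*, and summed to 18.3 CPM ± 1.82 in WT, 38.4 ± 6.81 in RC/RC and 37.0 ± 21.2 in the knockout. All 5 fibroblast markers rose, led by *Col3a1*, and 4 of them fell in the knockout against RC/RC. They summed to 149 CPM ± 24.1, 840 ± 324 and 287 ± 118. Of 5 smooth muscle and pericyte markers 3 rose and 3 fell in these comparisons, with sums of 251 CPM ± 22.7, 484 ± 214 and 224 ± 18.2.

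Of 5 markers of injured tubule 3 rose in RC/RC, *Havcr1*, *Lcn2* and *Vcam1*, with *Spp1* the most abundant, and the list summed to 1247 CPM ± 764 in WT, 3465 ± 1659 in RC/RC and 1480 ± 621 in the knockout. RC105 held the highest sum, 5758 CPM. Endothelial, intercalated cell and thick ascending limb markers had no call in RC/RC against WT by edgeR, with 2 of 5, 3 of 5 and 1 of 3 at an unadjusted p under 0.05. Of 4 podocyte markers 1 fell. Of all genes tested in that comparison, 29.2% had an unadjusted p under 0.05, 12.9% were called and 3.18% fell. Of the 6 principal cell markers 5 were tested and 0 called, all 5 at an unadjusted p under 0.05 and higher in RC/RC, with sums of 670 CPM ± 188, 1193 ± 209 and 895 ± 104 led by *Aqp2*; the marker not tested was *Avpr2*. The part of these markers in the values of the cAMP genes was not tested.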

How the data were processed

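The files hold, per the labels and the file headers, a table of raw read counts per gene for 12 kidney libraries, which the authors made with STAR against mm10 after CASAVA 1.8, as named in the submitters' processing notes. The version of STAR, the counting tool and its strand setting are not given in the sources used here. Gene lengths, coordinates, types and symbols are the deposited ones. The authors' FPKM, group means, fold changes and p-values stand in other columns and were not used, and no column of per-sample values was left unmapped (0). Neither sex nor replicate number can be read from the columns, only the group, so p-values measure the spread between these mice only.

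Each pair of groups (4 against 4 mice) was tested over all genes in R 4.3.3 with edgeR 4.0.16 (TMM factors, the package's filter on low counts, quasi-likelihood test), and a gene was called at a Benjamini-Hochberg adjusted p below 0.05. DESeq2 1.42.0, limma 3.58.1 on log2(FPKM + 1) and sva 3.50.0 served as alternatives. The fits were tested on simulated data, and the outcome of that test is not given here. CPM used TMM factors of all 12 libraries, and FPKM here is the deposited count over length and counted reads. Intervals and limits set by 3 counts cover counting error only.

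Members were matched by symbol alone, but the families and lists were chosen with earlier results of these data known. Values in every mouse are given for members called in any comparison and for the member of highest mean FPKM in each family, and of each list up to 3 called genes with the largest change in RC/RC against WT are named, beside *Avpr2*, *Aqp2*, *Gnas*, *Rapgef3*, *Rapgef4*, *Pkia*, *Pkib*, *Cftr* and *Casp1*. All other genes named were chosen after their values were seen. *Drd1* and *Adgre1* matched no symbol of the table. Exon overlaps came from GENCODE vM39 by gene ID (42 of 43 entries matched, 15 with shared bases), and promoters from RefSeq.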

Additional observations from a re-analysis of the deposited data

Results flagged for a closer look

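In 12 of 120 sets of 4 mice (a member in a group), the highest or the lowest mouse stood so far from the nearest other mouse that the gap took most of the whole range (Dixon's test at 95%). Chance alone would give about 1 in 20, or 6 of 120, for independent sets of normally distributed values. These sets share the same 12 mice, so 12 against 6 does not show an excess. RC105 stood high for *Adcy1* (25.9 CPM), *Pde7b* (16.9 CPM) and *Pde1a* (128.6 CPM). RC139 stood high for *Adcy4* (15.4 CPM), *Pde5a* (16.7 CPM) and *Prkar2b* (45.97 CPM). Among the knockout mice, Del3_70 stood high for *Adcy7* (36.5 CPM) and *Pde1b* (6.72 CPM) and low for *Adcy2* (0.227 CPM), and Del3_60 stood high for *Crem* (15.1 CPM). Among the WT mice, B6_4 stood high for *Pde1c* (6.24 CPM) and *Prkar2b* (7.94 CPM). RC105 also held the highest summed level of injured tubule markers, RC139 of fibroblast and smooth muscle markers, and Del3_70 of lymphocyte markers, and their part in these values was not tested.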

How the results depend on the processing

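*Adcy7* in RC/RC against WT and *Pde4c* in the knockout against RC/RC were called under all 16 alternatives each, and the differences in the summed levels of 5 families in both comparisons, 10 values, moved by less than the spread between mice when CPM replaced FPKM. By CPM, though, B6_6 stood above all knockout mice for the cAMP-specific phosphodiesterases, all RC/RC mice stood below all WT mice for them, and the regulatory subunits no longer overlapped between knockout and RC/RC. The counts of members below stand without the share of all genes called under the same alternative. They do not show whether members were called more often than other genes. Members called in RC/RC against WT were 3, 1 higher and 2 lower. DESeq2 and a dispersion shared by 12 mice each gave 4, 3 of them lower. With library size alone there were 1 and 0 lower, with limma 1 and 0 lower, with at least 10 counts in every mouse 1 lower, and leaving out 1 mouse gave 1 to 5, 1 to 2 higher and 0 to 3 lower. In the knockout against RC/RC, 4 were called, 3 higher and 1 lower. DESeq2 gave 9, 6 higher and 3 lower; 1 surrogate variable, added after seeing the data, 9, 6 and 3; a dispersion shared by 12 mice 7, 6 of them higher; limma 2 and 0 lower; library size 0 lower; and leaving out 1 mouse 1 to 9, 1 to 6 higher and 0 to 3 lower. In the knockout against WT 0 were called, with DESeq2 1, higher, with the surrogate variable 2, both higher, and 0 to 1 on leaving out 1 mouse (*Pde4a* without Del3_42). Library size alone moved the median log2 fold change of all genes from 0.01 to 0.14 in the knockout against WT (0.10 with limma) and from -0.02 to 0.08 in RC/RC against WT. Signs turned with library size and limma for *Prkaca* in RC/RC against WT (-0.026 to 0.0697 and 0.0685), and in the knockout against WT for *Adcy1* (-0.12 to 0.0180 and 0.00608) and *Creb3l1* (-0.03 to 0.12 and 0.0620). Leaving out 1 mouse gave, in RC/RC against WT, -0.0867 to 0.00986 for *Prkaca*, -0.0337 to 0.12 for *Prkar1a*, -0.16 to 0.26 for *Prkar1b* and -0.15 to 0.51 for *Creb3l1*. In the knockout against RC/RC it gave -0.20 to 0.13 for *Pde5a* and -0.53 to 0.10 for *Creb3l1*, and against WT -0.23 to 0.22 for *Creb3l1*. None of these was called, and the cause was not tested. No paired analysis was possible because the columns carry mouse numbers and not the replicate numbers of the labels.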
